A study of Mus musculus with 12 samples.

Results

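The mammalian circadian clock was read in mouse blood through 10 of its genes, Arntl, Clock, Cry1, Per1, Per2, Per3, Nr1d1, Nr1d2, Dbp and Tef. They were taken by symbol from a table of 37583 genes, and the identifiers of all 10 carry the same symbols in the reference annotation. Blood was taken from wild-type mice given a burn together with a tenotomy (a cut tendon), a model used to provoke bone formation in soft tissue, and every group carried that injury. It was drawn 6 h, 1 day or 7 days afterwards, with 4 libraries in each group (6h, Day1 and Day7), and passed over a microfluidic sorting chip, the iChip, before total RNA was sequenced. The labels call the product a mixture of blood cells and circulating mesenchymal progenitor cells. The labels give no age, sex or strain and no time of day for the draws, so a change with time after injury and a change with time of day cannot be told apart. Whether the 4 replicates of a group came from different mice is not stated. The p-values therefore reflect only library-to-library spread, part of which may be technical.

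The clock is a transcriptional feedback loop that runs in most cells. ARNTL (also called BMAL1) and CLOCK form the positive limb. They pair and switch on genes that carry an E-box in their regulatory DNA, among them the Per and Cry genes, whose proteins return to the nucleus and repress that pair. The same pair drives the Nr1d genes, which encode the REV-ERB nuclear receptors that repress Arntl, and the PAR-bZIP factors DBP and TEF, which bind D-boxes and carry the rhythm to output genes. In tissues with a running clock Arntl therefore peaks roughly opposite to Nr1d1 and Dbp. Per1 is also known as an acute target of glucocorticoid and cyclic AMP signals.

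The stretches of DNA ahead of the members that fell between Day1 and Day7, of Arntl and of Per3 are shown so that the elements named above can be seen. They are read 5′ to 3′ on the gene's strand from RefSeq start sites on GRCm38.p6, stop before any annotated exon, and give an E-box (CACGTG), a D-box (TTATGTAA or TTACGTAA) or the half-site of REV-ERB and ROR receptors (AGGTCA, or TGACCT on the other strand) in capitals. The Per1 stretch is chr11:69098699-69098947 (plus strand), the Tef stretch chr15:81811164-81811413 (plus), the Dbp stretch chr7:45704997-45705087 (plus), the Nr1d1 stretch chr11:98775378-98775627 (minus), the Per3 stretch chr4:151044666-151044915 (minus) and the Arntl stretch chr7:113207215-113207464 (plus). Per1 has a second start, whose stretch at chr11:69099902-69100151 (plus) holds none of these motifs and is not printed, and a second start of Tef also has an E-box.
Per1: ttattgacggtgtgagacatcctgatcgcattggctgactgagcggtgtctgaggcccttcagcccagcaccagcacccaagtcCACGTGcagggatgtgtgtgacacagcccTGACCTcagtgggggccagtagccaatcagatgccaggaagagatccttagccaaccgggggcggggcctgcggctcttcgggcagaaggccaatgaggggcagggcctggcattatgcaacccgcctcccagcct
Tef: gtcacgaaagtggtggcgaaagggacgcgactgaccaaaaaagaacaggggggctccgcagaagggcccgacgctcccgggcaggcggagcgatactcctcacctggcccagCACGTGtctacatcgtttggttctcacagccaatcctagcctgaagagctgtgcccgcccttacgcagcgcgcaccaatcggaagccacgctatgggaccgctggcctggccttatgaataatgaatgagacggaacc
Dbp: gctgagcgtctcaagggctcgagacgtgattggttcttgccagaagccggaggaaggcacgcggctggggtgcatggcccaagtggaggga
Nr1d1: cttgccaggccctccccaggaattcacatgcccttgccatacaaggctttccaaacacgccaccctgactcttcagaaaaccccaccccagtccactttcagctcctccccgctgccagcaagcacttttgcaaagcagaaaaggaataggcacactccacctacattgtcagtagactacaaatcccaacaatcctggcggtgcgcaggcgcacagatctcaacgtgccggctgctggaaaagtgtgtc
Per3: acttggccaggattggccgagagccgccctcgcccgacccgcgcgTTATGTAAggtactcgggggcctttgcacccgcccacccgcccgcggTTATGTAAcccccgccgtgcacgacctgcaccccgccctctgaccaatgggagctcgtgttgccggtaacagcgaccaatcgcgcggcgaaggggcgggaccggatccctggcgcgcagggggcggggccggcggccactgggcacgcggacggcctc
Arntl: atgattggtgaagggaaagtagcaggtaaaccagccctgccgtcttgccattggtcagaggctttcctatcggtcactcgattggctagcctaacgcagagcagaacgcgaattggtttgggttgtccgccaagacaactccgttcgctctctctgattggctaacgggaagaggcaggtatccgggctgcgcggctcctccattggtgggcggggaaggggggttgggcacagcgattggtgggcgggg

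Promoter windows of 250 bases before to 50 bases after a start were at hand for 9 members, 14 windows in all, and both strands were searched. An E-box lay in windows of Per1, Tef and Cry1 (4 windows), against 7.15% of all 32851 windows. The D-box occurred in the Per3 window alone among the members, at 205 and 158 bases before the start, against 1.06% of all windows. The AGGTCA half-site lay in windows of Per1, Nr1d2, Clock and Arntl, against 16.3% of all windows. In Arntl it lay downstream of a second start and so outside the stretch shown, which belongs to another start. A cyclic AMP element (TGACGTCA) was in 0 member windows, against 1.79% of all. None of these matches overlapped another. The windows of Dbp and Nr1d1 held none of the 4 motifs, which says only that these letters are not in this short stretch.

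Clock transcripts were sparse in this material. Libraries held 5098395 to 12379041 reads, of which 16.1% to 70.3% fell on haemoglobin genes. The 10 members together took 4 reads (Day7 replicate 3) to 9082 reads (Day1 replicate 4) of a library. Nr1d1 alone was detected in all 12 libraries. Per1, Per3, Nr1d2 and Tef had reads in 11, Per2, Cry1 and Arntl in 10, and Dbp and Clock in 9. The values below are the deposited ones, reads scaled by 1 constant per library, and 1 read was worth 0.0314 (Day1 replicate 2) to 0.617 (Day7 replicate 3). A gene at 0 reads in Day7 replicate 3 could therefore still have had a value of up to 1.85 (3 reads, counting error only). In bulk RNA of this kind, fewer cells of a type and less RNA per cell cannot be told apart.

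Per kb of gene length, which allows genes to be compared, the median level over the 12 libraries was 4.49 for Dbp, 2.87 for Per1, 2.09 for Tef and 1.94 for Nr1d1. It was 0.916 for Nr1d2, 0.756 for Per3, 0.631 for Cry1, 0.398 for Per2, 0.241 for Arntl and 0.0896 for Clock. The SD of a gene over the libraries was about as large as its mean (9.74 ± 12.7 for Dbp and 0.152 ± 0.171 for Clock, SD, n = 12), so neighbours in this order did not differ beyond their spread. At Day1 the order by median level per kb was led by Dbp (27.5), Nr1d1 (15.9), Per1 (9.72) and Tef (5.40), and at Day7 by Dbp (2.55) and Cry1 (1.09).

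**Figure D1:**
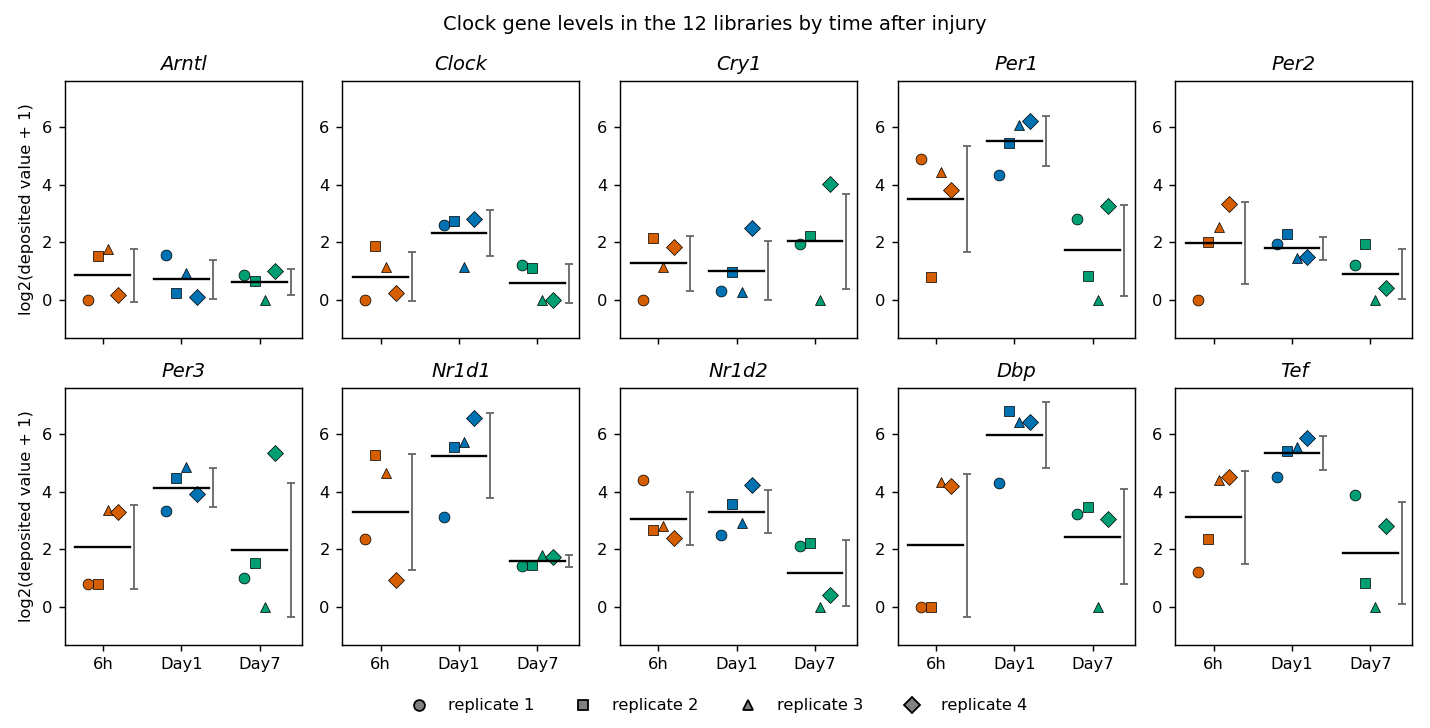
Level of each of the 10 clock genes, as log2(deposited value + 1), in the 4 libraries at 6h, Day1 and Day7. Each symbol is 1 library, the horizontal line is the group mean and the bar beside it the SD (n = 4); Per1, Nr1d1, Nr1d2, Dbp and Tef have all 4 Day7 libraries below all 4 Day1 libraries, while Arntl stays low throughout.

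Between Day1 and Day7 the transcripts of Per1, Nr1d1, Dbp and Tef fell. These were 4 of the 9 members that could be tested, and 0 members rose. Over all 11211 tested genes 3.59% were called lower and 2.19% higher in that comparison. Arntl was the member left out, since it did not reach a deposited value of 1 in 4 libraries. The log2 differences of the 9 had a median of -2.16, against -0.48 over all tested genes. Of the 9, 8 were below 0, as were 61.8% of all tested genes. Higher and lower calls over all genes numbered 245 and 403, but 152 and 637 with median-of-ratios scaling, 10 and 4065 scaled to all reads and 23 and 3845 scaled to reads outside haemoglobin. The groups did not overlap for 5 members, these 4 and Nr1d2, against 14.5% of tested genes lower in this way.

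Per1, a period gene that feeds back on the ARNTL and CLOCK pair, was 19.0, 42.8, 66.1 and 73.6 in Day1 replicates 1 to 4 and 6.05, 0.766, 0 and 8.65 in Day7 replicates 1 to 4. Every Day1 library lay above every Day7 library. The log2 fold change was -3.79 (SE 0.95, limma adjusted p = 0.0300), on 4282 reads at Day1 and 118 at Day7. Nr1d1, the gene of REV-ERB alpha, was 7.79, 46.0, 51.7 and 93.6 at Day1 and 1.65, 1.72, 2.47 and 2.33 at Day7. Its 4 Day7 values lay close together, on 4 to 24 reads each, while Day1 replicate 1 was well below the other Day1 libraries. The log2 fold change was -3.65 (SE 0.95, limma adjusted p = 0.0331). Exons of Nr1d1 overlap those of Thra, a thyroid hormone receptor gene on the opposite strand, and the counting is not stated to use strand, so reads of the pair cannot be told apart there. The Day1 mean of Thra was 17.7 ± 7.46 and its Day7 mean 5.22 ± 4.51 (SD, n = 4), and it did not pass (log2 difference -1.77, limma adjusted p = 0.170).

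Dbp, the albumin D-site binding protein and a direct target of the positive limb, was 18.5, 109.7, 84.6 and 84.5 in Day1 replicates 1 to 4. At Day7 it was 8.39, 10.1, 0 and 7.32. Day1 replicate 1 was again the lowest of its group, and the groups did not overlap. The log2 fold change was -3.54 (SE 1.06, limma adjusted p = 0.0489), on 6928 reads at Day1 and 197 at Day7. Exons of Dbp overlap the opposite-strand gene Sphk2, so the same doubt about strand applies. Tef, a second PAR-bZIP factor, was 21.8, 41.6, 45.4 and 57.6 at Day1 and 13.6, 0.766, 0 and 5.99 at Day7. The highest Day7 library stayed below the lowest Day1 library. The log2 fold change was -3.46 (SE 0.94, limma adjusted p = 0.0375). Exons of Tef (with Gm17597) and of Arntl (with Gm45355) overlap an opposite-strand gene too.

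The calls did not outlast the loss of single libraries, although the folds did. They became 0 of 9 without Day1 replicate 2, 3 or 4 or without Day7 replicate 2 or 3. Without Day7 replicate 4 there was 1 (Per1), among 128 genes called in the whole table. In the 5 runs with 0 members the calls over the whole table dropped from 648 genes to 14, 3, 20, 50 and 41 in that order. Over the 12 runs that each left out 1 library, the log2 fold change was -4.30 to -3.21 for Per1, -4.35 to -3.21 for Nr1d1, -4.10 to -2.72 for Dbp and -4.12 to -2.83 for Tef. All 9 log2 differences kept their sign in every setting run. On the recovered reads DESeq2 called the same 4 genes among 1776 in the whole table, whereas edgeR called 0 (4 at an unadjusted p under 0.05), with only 1 gene of the whole table called there. With no filter on low values limma passed 0 of 10 members, 6 of them having an unadjusted p under 0.05, and 57 genes in the whole table.

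**Figure D2:**
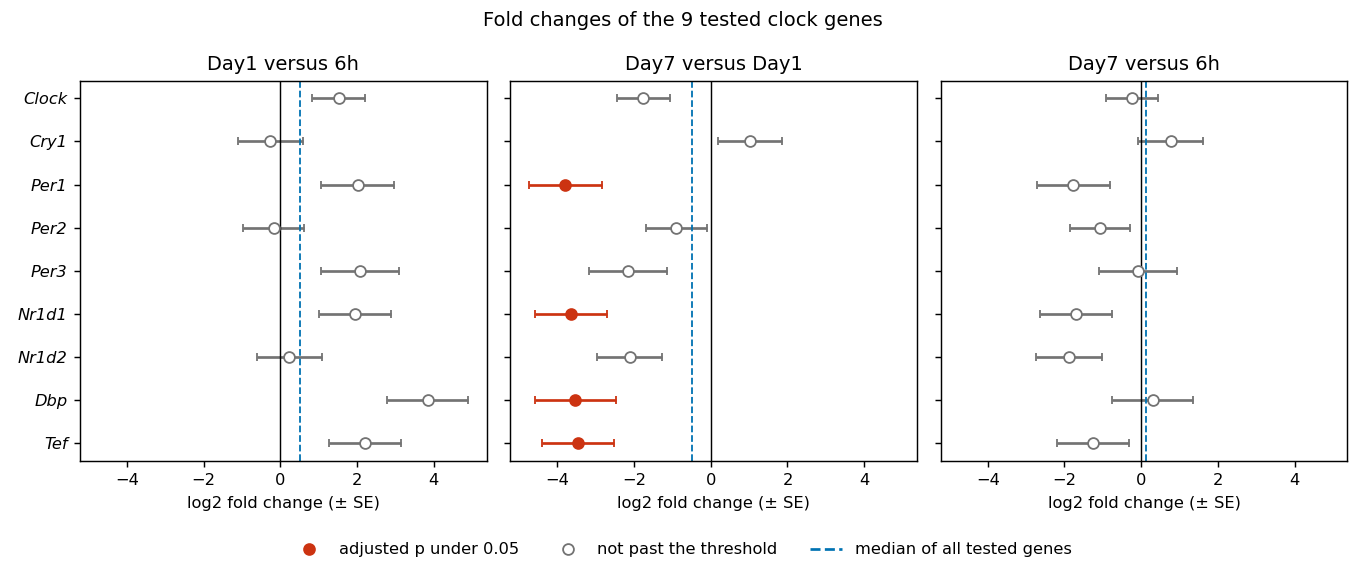
Log2 fold change of the 9 tested clock genes in the 3 comparisons, with bars for the SE and a dashed line at the median of all tested genes. Filled symbols passed an adjusted p of 0.05, which held for Per1, Nr1d1, Dbp and Tef at Day7 against Day1 and for no member in the other comparisons.

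The other tested members of the negative limb did not pass at Day7 against Day1, with negative log2 differences for Nr1d2, Per3 and Per2 and a positive one for Cry1. Nr1d2, the gene of REV-ERB beta, was 4.70, 10.9, 6.52 and 17.6 at Day1 and 3.37, 3.64, 0 and 0.333 at Day7. These groups did not overlap either, but the gap between 4.70 and 3.64 was narrow (log2 difference -2.11, limma adjusted p = 0.108). Per3, the third period gene, was 9.02, 21.0, 28.2 and 14.1 at Day1 and 1.03, 1.91, 0 and 39.9 at Day7. Day7 replicate 4 was the highest Per3 value of all 12 libraries, on 120 reads, and the other Day7 libraries were below every Day1 library (log2 difference -2.16, limma adjusted p = 0.161). Per2, which like Per1 encodes a repressor of the positive limb, was 1.74 to 3.96 at Day1 and 0 to 2.87 at Day7 (log2 difference -0.90, limma adjusted p = 0.462). Cry1, a cryptochrome that represses the ARNTL and CLOCK pair, had a log2 difference of 1.03 (limma adjusted p = 0.426). It was 0.247, 0.973, 0.228 and 4.63 at Day1 and 2.89, 3.64, 0 and 15.3 at Day7, and the groups overlapped.

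From 6h to Day1, 0 of 9 members passed in limma, and 4 had an unadjusted p under 0.05 (Per1, Clock, Dbp and Tef). Per1 had the largest of these 4, a limma p of 0.0446, which ranked 1133 among the 11211 tested genes. The edgeR and DESeq2 tests also called 0, with 9 and 197 genes called in the whole table. Over all tested genes 0.169% were called higher and 0% lower. The members had a median log2 difference of 1.94, against 0.52 over all tested genes, and 0 members had groups that did not overlap, against 5.52% of tested genes higher in this way.

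The 6h libraries were uneven among themselves. Dbp was at 0 in 6h replicates 1 and 2 and at 19.3 and 17.5 in replicates 3 and 4, about the level of Day1 replicate 1 (log2 difference 3.84, SE 1.06, limma adjusted p = 0.168). Tef followed the same split, with 1.31 and 4.17 in replicates 1 and 2 and 20.04 and 21.8 in replicates 3 and 4 (log2 difference 2.21, limma adjusted p = 0.4002). Per3 did so too, with 0.747 and 0.757 against 9.41 and 8.75. Per1 split otherwise, at 29.1, 0.757, 21.0 and 13.2 in 6h replicates 1 to 4. Nr1d1 ran differently again, at 4.11, 37.5, 24.1 and 0.899, so the library with next to no Per1, 6h replicate 2, had the highest Nr1d1 of its group. Nr1d2 was 20.4, 5.30, 6.04 and 4.26 at 6h and Per2 was 0, 3.03, 4.83 and 8.99, with log2 differences to Day1 of 0.23 and -0.17.

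The count of calls moved with the scaling. Scaled to all reads, 6 members were called higher at Day1 than at 6h (Per1, Per3, Nr1d1, Dbp, Tef and Clock), but the median of all genes then stood at 1.57 and 1243 genes were called. Scaled to reads outside haemoglobin it was 1 member, Dbp, with a median of all genes of 1.23 and 485 genes called.

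Between 6h and Day7, 0 of 9 members passed in limma and 1 had an unadjusted p under 0.05. That was Nr1d2, whose limma p of 0.0370 ranked 1685 among the 11211 tested genes. By edgeR 0 passed and by DESeq2 1, Nr1d1, among 1075 genes that DESeq2 called in the whole table. Over all tested genes 0.607% were called higher and 0.277% lower. The 9 log2 differences had a median of -1.08, against 0.13 over all tested genes. Nr1d1 had a mean of 16.7 ± 17.3 at 6h and of 2.04 ± 0.415 at Day7 (SD, n = 4; log2 difference -1.70, limma adjusted p = 0.346). Nr1d2 was the single member whose Day7 libraries all lay below the 6h libraries (log2 difference -1.88, limma adjusted p = 0.246), against 2.38% of tested genes lower in this way. The differences of Dbp (0.30) and Per3 (-0.09) were small and changed sign in several settings. The comparisons share libraries, so these values are not independent of the ones above. In the moderated F test for any difference among the 3 times, 0 of 9 members passed in limma, against 2.55% of tested genes, and 6 had an unadjusted p under 0.05. Dbp (adjusted p = 0.0574) and Per1 (adjusted p = 0.0589) came nearest by that limma test. DESeq2 called 2 members, Per1 and Nr1d1, among 876 genes in the whole table, and edgeR 0 among 10.

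The positive limb gave few reads outside Day1. Arntl, the obligate partner in the loop, had 71 reads in all 12 libraries together. It was 0, 1.89, 2.41 and 0.120 in 6h replicates 1 to 4, 1.98, 0.188, 0.910 and 0.0778 at Day1 and 0.825, 0.574, 0 and 0.998 at Day7. The groups overlapped fully. With no filter on low values its log2 difference was -0.15 from 6h to Day1 (limma adjusted p = 0.940; 0.41 when scaled to all reads) and -0.09 from Day1 to Day7 (SE 0.51, limma adjusted p = 0.948). Clock, its partner, had 437 reads, 397 of them at Day1. Its values were 0, 2.65, 1.21 and 0.180 at 6h, 5.07, 5.78, 1.21 and 6.07 at Day1 and 1.31, 1.15, 0 and 0 at Day7. Day1 replicate 3 overlapped both other groups. The log2 difference was 1.52 from 6h to Day1 (limma adjusted p = 0.430) and -1.76 from Day1 to Day7 (SE 0.69, limma adjusted p = 0.0992). The highest group mean was at 6h for Arntl (1.11 ± 1.23) and at Day1 for Clock (4.53 ± 2.25, SD, n = 4), and a difference between the 2 genes was not tested.

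Within a library the balance of the limbs does not depend on scaling. The 7 Per, Nr1d and PAR-bZIP genes summed to 71.8 ± 24.3 at 6h, 247 ± 113 at Day1 and 31.1 ± 26.2 at Day7, and Arntl plus Clock to 2.12 ± 2.30, 5.32 ± 2.18 and 1.21 ± 0.935 (SD, n = 4). The ratio of these sums was 11.3, 28.9 and 251 in 6h replicates 2 to 4 and 11.9, 46.3, 134 and 55.7 in Day1 replicates 1 to 4. It was 16.6, 12.7 and 65.0 in Day7 replicates 1, 2 and 4. Libraries 6h replicate 1 and Day7 replicate 3 had 0 reads of Arntl and Clock, against 298 and 4 reads of the 7 genes, so no ratio was formed there. The ratio at 6h and Day7 rested on 3 to 31 reads of the positive limb in a library, and the ranges of the 3 groups overlapped. Summed per kb, which gives the long Clock transcript less weight, the ratio was 138, 163 and 174 in Day1 replicates 2 to 4 and 15.9 in replicate 1, against 18.3 to 26.0 at Day7 and 17.0, 25.1 and 258 at 6h. No test was made of this ratio, since the genes were chosen with results of these data known.

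**Figure D3:**
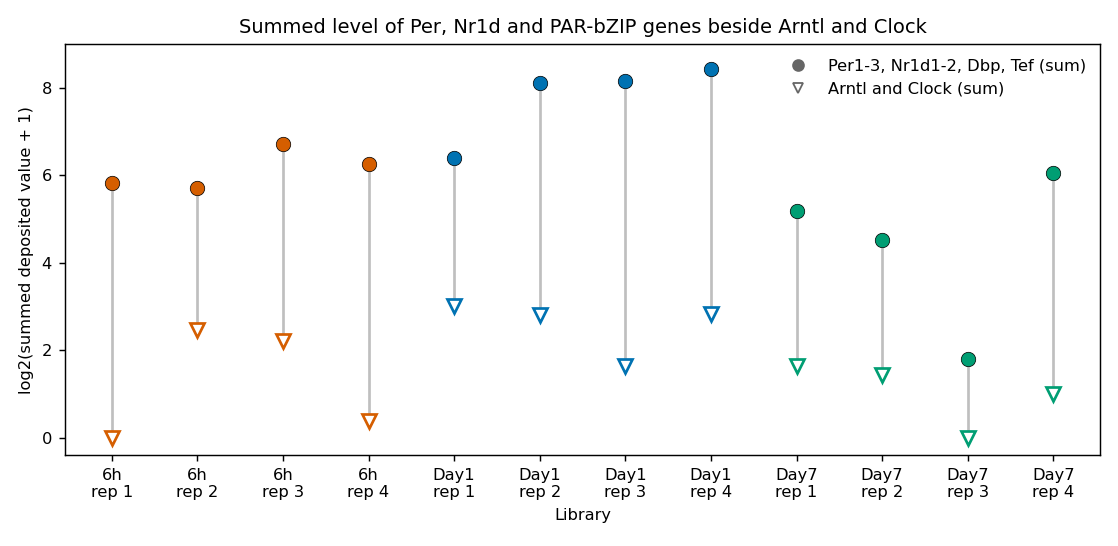
Summed level of the 7 Per, Nr1d and PAR-bZIP genes (filled circles) and of Arntl plus Clock (open triangles) in each library, as log2(summed deposited value + 1). Day1 replicates 2 to 4 have the highest sums of the 7 genes, and the positive limb is at 0 in 6h replicate 1 and Day7 replicate 3.

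Of 18 further genes of the clock, its kinases and its ubiquitin ligases, 14 passed the filter on low values and 0 were called in any comparison or in the F test by limma. At an unadjusted p under 0.05 there were 2 from 6h to Day1, 5 from Day1 to Day7 and 3 from 6h to Day7. Such values were common among the 11211 tested genes. From 6h to Day1 a limma p of 0.0446 (Per1) ranked 1133. From Day1 to Day7 a limma p of 0.0491 (Thra) ranked 3238, and from 6h to Day7 one of 0.0370 (Nr1d2) ranked 1685. These counts are therefore not read as a result about the list. Their median log2 difference was 0.39 from 6h to Day1 and -0.996 from Day1 to Day7, against 0.52 and -0.48 over all genes. Hlf, the third PAR-bZIP factor beside Dbp and Tef, was 2.10, 15.9, 4.399 and 22.3 at Day1 and 0, 2.68, 0 and 0.333 at Day7 and narrowly missed the threshold (log2 difference -2.60, SE 0.83, limma adjusted p = 0.0582). One Day7 library lay within the Day1 range. Cry2, the second cryptochrome, had its highest mean at 6h (12.4 ± 7.61, SD, n = 4) and was 1.44, 1.15, 0 and 0 at Day7, below every 6h library (log2 difference -2.97, limma adjusted p = 0.0932). Cry2 was also at 0 in Day1 replicate 4, the library with the highest Per1 and Nr1d1.

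Among repressors and modulators, Nfil3, which competes with DBP and TEF at D-boxes, averaged 15.6 ± 16.9 at 6h, 3.25 ± 3.37 at Day1 and 1.20 ± 2.31 at Day7 (SD, n = 4). Bhlhe40, a repressor that binds E-boxes, averaged 30.1 ± 38.3, 20.6 ± 17.7 and 2.33 ± 4.10. One library set its 6h mean, 84.8 in replicate 2, without which that mean was 11.8 (an alternative chosen after seeing the data), and the log2 difference from 6h to Day1 was 0.39. Rora, the receptor that activates Arntl at the sites where REV-ERBs repress it, averaged 10.3 ± 7.02, 4.47 ± 1.58 and 2.68 ± 4.47. For these 3 genes the limma adjusted p ran from 0.0950 to 0.925 over the comparisons. Npas2, a paralogue that can replace Clock, had 49 reads in 5 libraries and 0 at Day7, and was too low to test.

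Members differed in how they went together over the 12 libraries, given as Pearson correlations of log2 values, which share depth and scaling. Dbp and Tef gave r = 0.86, and 0.80 after each time group's mean was removed. Per1 gave 0.80 with Tef and 0.71 with Dbp (0.54 and 0.54 within groups). Nr1d1 gave 0.53 with Per1, but -0.13 within groups. The 5 tested genes most like Per1, among 4346 genes with a mean of at least 10, were Cys1 (r = 0.973), 0610007N19Rik (0.973), Zfp36l1 (0.968), Fmod, a small proteoglycan of tendon matrix (0.962), and Nbl1, a secreted BMP antagonist (0.958). For Arntl the most like were Rhbdf2 (0.705), Atp13a1 (0.700), Angptl4 (0.694), Tomm34 (0.691) and Ephx2 (0.689), on 71 Arntl reads.

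Mesothelial marker sums were lower in every Day7 library than in any Day1 library, as the 4 clock genes that fell were. Mesenchymal sums were lower too, except that Day7 replicate 4 (628) lay above Day1 replicate 1 (348). Keratinocyte sums were lower as well, at 41.0 to 94.4 at Day1 and 0 to 4.196 at Day7 (2 of 3 markers detected, Krt5 at 0). Of the remaining lists of cells outside blood, endothelial sums were higher at Day7 and hepatocyte sums were mixed. All 9 mesenchymal markers were detected at Day1 and Day7, and 8 at 6h, where Lum was at 0. The 6h libraries ranged from 11.7 to 1459.8 in summed value, the Day1 libraries from 348 to 1959 and the Day7 libraries from 12.3 to 628. All 8 mesothelial markers were detected in each group, and their sums ranged from 24.6 to 2118 (6h), 513 to 2544 (Day1) and 3.08 to 216 (Day7). Over the 12 libraries Per1 correlated with the mesenchymal sum at r = 0.91 (0.93 within groups), Dbp at 0.80 (0.77), Tef at 0.78 (0.67) and Per3 at 0.78 (0.70). The mesothelial sum gave similar values, 0.92 (0.86), 0.78 (0.82), 0.80 (0.64) and 0.71 (0.66) in that order. With the erythroid sum the same 4 genes gave -0.65 (-0.39), -0.74 (-0.57), -0.78 (-0.62) and -0.38 (-0.05), with values within groups in brackets. The link is thus not particular to the mesenchymal list. Nr1d1 did not follow the mesenchymal sum (0.33, and -0.16 within groups), and neither did Clock (0.27 and -0.24). The 6h replicate 2 library shows the contrast, with a mesenchymal sum of 11.7, Per1 at 0.757, Dbp at 0 and Nr1d1 at 37.5. Endothelial sums (4 of 4 markers at Day1 and Day7) were 19.5 to 58.8 at Day1 and 64.2 to 194 at Day7. Hepatocyte sums (6 of 6) had medians of 1866 at Day1 and 2367 at Day7. Day7 replicates 2 and 3, at 61.4 and 455, lay below every Day1 library (lowest 1232), and replicates 1 and 4, at 15169 and 4280, above every Day1 library (highest 4226). Platelet markers, all 8 detected in each group, were also higher at Day7, from 820 to 5559 at Day1 to 20713 to 35417 at Day7. The part of these cell markers in the clock gene differences was not tested. Per 1000 units of the mesenchymal sum, Per1 was 21.9 to 56.6 at Day1 and 0 to 20.2 at Day7. The gap between these ranges was narrow, and the share of all tested genes apart on this scale was not computed. The 0 came from Day7 replicate 3, whose mesenchymal sum was 12.3 and where 4 reads of Nr1d1 gave 199.99. Whether Per1 lay below Day1 in that library therefore cannot be told. Libraries of the 6h group, with Per1 between 14.4 and 65.1, spanned the whole Day1 range. The other called genes overlapped on that scale, Dbp with 43.8 to 72.3 at Day1 and 0 to 115 at Day7, Nr1d1 with 22.4 to 48.5 and 3.71 to 199.99, and Tef with 21.3 to 62.5 and 0 to 45.4.

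**Figure D4:**
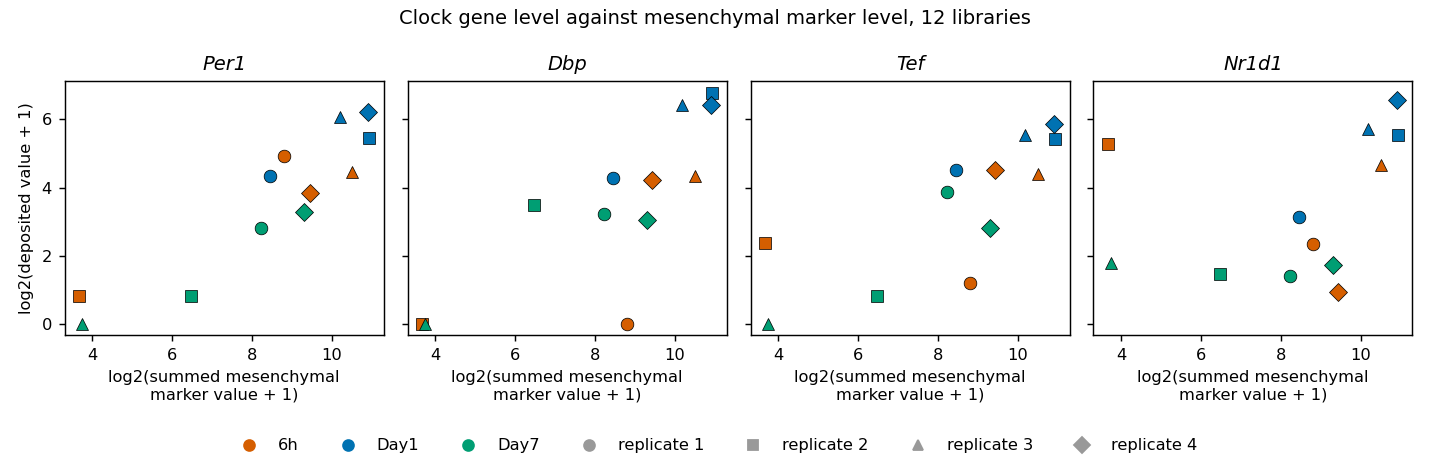
Level of Per1, Dbp, Tef and Nr1d1 against the summed level of 9 mesenchymal markers in the 12 libraries, both as log2(value + 1), with colour for the time group and symbol for the replicate number. Per1 is higher where the marker sum is higher (r = 0.91), whereas Nr1d1 is high in 6h replicate 2, the library with the lowest marker sum.

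Reads of Y-linked genes, present in 2 of 4 libraries at 6h (replicates 3 and 4), 3 of 4 at Day1 (replicates 2, 3 and 4) and 0 of 4 at Day7, split the clock genes in a similar way. At 6h the libraries with such reads held Dbp at 17.5 and 19.3 and the others at 0. At Day1 they held 84.5 to 109.7 and the other library 18.5. Tef and Per3 were likewise higher in the libraries with Y-linked reads at both times, whereas Per1 and Nr1d1 followed the split at Day1 and not at 6h. With a term for Y-linked reads limma passed 0 of 9 members at Day7 against Day1 (3 had an unadjusted p under 0.05), and 0 genes passed in the whole table. The log2 difference was then -3.18 for Nr1d1, -2.73 for Per1, -1.96 for Tef and -0.98 for Dbp. Among libraries without Y-linked reads, the sole Day1 library held Nr1d1 at 7.79 against at most 2.47 in the 4 Day7 libraries. Per1 was at 19.0 against at most 8.65, Tef at 21.8 against at most 13.6 and Dbp at 18.5 against at most 10.1. That it lay above them follows from the groups not overlapping for these genes, so it is no further support, and it is 1 library.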

How the data were processed

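The authors deposited 1 table of gene values named CPM, whose columns do not sum to a common total. The deposited signal is whole reads per gene times 1 constant per library. Recovered reads were whole within 0.001 reads for 99.9993% of values. STAR 2.7.10, HTSeq 2.0.1 and mm9 are the tools and build named by the submitters' processing notes. Strand use, annotation and scaling step: not given in the sources used here. Gene lengths are other values of the deposited table, per the file headers.

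Titles of the samples gave group and replicate number. limma 3.58.1 (R 4.3.3) with a trended variance was fitted to log2(value + 1) of all 12 libraries with time as the sole factor, for genes that reached a value of 1 in 4 or more libraries. Benjamini-Hochberg adjustment ran over all 11211 tested genes, two-sided, with a threshold of 0.05. For edgeR, the fit without a filter, the Y-linked term and the F test, the share of all genes at an unadjusted p under 0.05 was not computed. Fold changes on this scale understate changes of low genes. The scripts were tested on simulated counts.

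The 10 members and all lists were chosen with earlier results of these data known. Named throughout were the members, listed clock genes past a threshold, and Cry2, Npas2, Rora, Nfil3, Bhlhe40 and Hlf, plus Thra for its overlap with Nr1d1. Genes most like Per1 and Arntl were the 5 with the highest r and a mean of at least 10. Exon overlaps came from GENCODE on GRCm38, by name alone, and promoters from RefSeq. The symbol of all 10 member IDs matched the reference. Alternatives were other pseudocounts, filters and scalings, array weights, a replicate block, a term for Y-linked reads, libraries left out, and edgeR 4.0.16 and DESeq2 1.42.0 on the recovered reads. Of the other marker lists, hepatocyte, erythroid, neutrophil, monocyte, T cell, B cell, endothelial and keratinocyte sums are given with the closing observations.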

Additional observations from a re-analysis of the deposited data

Results flagged for a closer look

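In 3 of 30 groups of 4 libraries (10 genes at 3 times), 1 library stood far from the others. Chance gives about 1 such group in 20 if values are normally distributed, which was not tested for these low values. Per3 was 39.9 in Day7 replicate 4, against 0 to 1.91 in the other Day7 libraries. Nr1d2 was 20.4 in 6h replicate 1, against 4.26 to 6.04 in the other 6h libraries. Cry1 was 4.63 in Day1 replicate 4, against 0.228 to 0.973 in the other Day1 libraries.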

How the results depend on the processing

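Few reads limit the lowest members, with 71 in all for Arntl, and 1 read was worth up to 0.617. At Day7 against Day1 the count of called members was 4, among 648 genes called in the whole table. It was 0 with no filter (57 in the whole table), 0 in edgeR (1) and 0 with Y-linked reads as a term (0). A pseudocount of 0.25 gave 3 members, without Dbp (457), and array weights gave 6 (2779). Scaling to all reads (4075) or to reads outside haemoglobin (3868) gave 7, where the medians of all genes were -1.77 and -1.60. Without the 2 libraries with the fewest genes it was 1, Nr1d1 (416), and with single libraries left out 0 to 4. The calls in the whole table then ran from 3 (without Day1 replicate 3, 0 members) to 1185 (without 6h replicate 1, 4 members). At Day1 against 6h (0) it was 6 scaled to all reads and 1 scaled to reads outside haemoglobin, and 0 in each run without 1 library. At Day7 against 6h (0) DESeq2 gave 1, and each run without 1 library 0. In the F test (0) it was 2 with median-of-ratios scaling (284 genes called in the whole table, 286 as reported) and 2 in DESeq2 (876). Scaled to all reads (2993) or to reads outside haemoglobin (2738) it was 7, and with array weights 4 (2116). With single libraries left out the F test gave 0 to 4 members. The run with 4 was the one without 6h replicate 4, where 977 genes were called in the whole table. The cause of these changes was not tested, except that fewer samples enter a fit without a library and more genes one without a filter.

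With the replicate number as a block the counts were 0 (Day1 against 6h), 4 (Day7 against Day1, the same genes), 0 (Day7 against 6h) and 1 (F test, Dbp). In the same order 45, 571, 156 and 308 genes were called in the whole table. Same-numbered libraries did not deviate together (r from -0.23 to 0.12, and the same number was the best match in 4 of 24 cases). The labels state no pairing, and this check cannot exclude a shared batch, as libraries also differ widely in haemoglobin and cell markers.

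The sign held in all settings for 9 of 9 members at Day7 against Day1 and for 6 of 9 in each other comparison. From 6h to Day1, Per2 turned to 0.12 (pseudocount 0.25), 0.84 (all reads) and 0.59 (outside haemoglobin) and ran from -0.83 to 0.28 with libraries left out. Cry1 turned to 0.51 and 0.25 in those scalings (-0.75 to 0.0285 with libraries left out), and Nr1d2 to -0.0637 in DESeq2 (-0.0735 to 0.68). At Day7 against 6h, Clock ran from -0.51 to 0.12 with libraries left out. Per3 turned to 0.11 (pseudocount 4), 0.94 (edgeR), 0.41 (DESeq2), 0.86 (Y-linked term) and 0.15 (without the 2 libraries with the fewest genes), and ran from -1.22 to 0.57. Dbp turned to -0.0039 (pseudocount 4), -0.0721 (all reads), -0.14 (outside haemoglobin), -0.50 (edgeR) and -0.95 (DESeq2), and ran from -0.41 to 1.12. None of these passed in limma, edgeR or DESeq2.

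The median ratio of the limbs was 28.9 at 6h (20.1 to 140.2 with single libraries left out), 51.0 at Day1 (46.3 to 55.7) and 16.6 at Day7 (14.6 to 40.8). Summed per kb, an alternative chosen after seeing the data, it was 25.1, 150.3 and 19.1, where Clock counts less, at 13508 bases against 2904 for Arntl.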

Other observations

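Summed marker values of the other cell types are given by their lowest and highest library. Erythroid markers (9 of 9 detected in each group) lay between 200350 and 1292200 at 6h, between 57547 and 424710 at Day1 and between 129120 and 3773400 at Day7. Monocyte markers (5 of 5) lay between 62.9 and 1897 at 6h, between 206 and 556 at Day1 and between 1551 and 3178 at Day7. Neutrophil markers ran from 3.38 to 135 at 6h (6 of 6), 0.272 to 75.8 at Day1 (5 of 6, Cxcr2 at 0) and 71.6 to 688 at Day7 (6 of 6). T cell markers (5 of 5) were 4.10 to 684, 6.19 to 74.3 and 0.617 to 73.6 at 6h, Day1 and Day7. B cell markers (4 of 4) were 15.7 to 213, 41.2 to 153 and 4.93 to 276. Hepatocyte markers were 2.65 to 118 at 6h (5 of 6, Apob at 0), 1232 to 4226 at Day1 and 61.4 to 15169 at Day7. Endothelial markers were 0 to 133 at 6h (2 of 4, Cdh5 and Tek at 0), 19.5 to 58.8 at Day1 and 64.2 to 194 at Day7. Keratinocyte markers were 19.1 to 163, 41.0 to 94.4 and 0 to 4.196, with Krt5 at 0 in every group. Nr1d2 went with this last sum (r = 0.88, and 0.72 within groups, over 12 libraries), while Nr1d1 and Arntl were lower where monocyte markers were higher (r = -0.75 and -0.62). This was not particular to monocytes. Nr1d1 gave -0.79 with the neutrophil and -0.69 with the platelet sum, and Arntl gave -0.59 with the platelet sum.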
